A study of Homo sapiens with 6 samples.

Results

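The nuclear genes of oxidative phosphorylation were taken from the gene table of the series by symbol: NDUFA, NDUFB, NDUFC, NDUFS, NDUFV and NDUFAF names for complex I, SDHA to SDHD for complex II, UQCR names and CYC1 for complex III, CYCS for cytochrome c, COX4 to COX8 names for complex IV and ATP5 names for complex V. The rule matched 96 symbols, of which 4 were left out as pseudogene or antisense names, leaving 92 members of 20115 genes. RNA came from MDA-MB-231 cells, an established line from a triple-negative breast cancer, in 2 groups of 3 libraries each: UBE3D knockdown cells, carrying lentiviral hairpins against UBE3D that doxycycline switches on, and control cells. The labels do not say whether control cells carried a hairpin or received doxycycline, and they call every sample pooled without naming what was pooled. UBE3D is a ubiquitin ligase gene, and the series title ties it to CPSF73, the nuclease that cuts pre-mRNA before polyadenylation. The design asks which genes, and which RNAs running past the ends of genes, differ between knockdown and control cells. If only knockdown cells received doxycycline, its effect and that of depletion cannot be told apart.

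Oxidative phosphorylation passes electrons from NADH through complex I, or from succinate through complex II, to ubiquinone, then through complex III and the mobile carrier cytochrome c to complex IV, which reduces oxygen. Complexes I, III and IV pump protons across the inner mitochondrial membrane, and complex V, the ATP synthase, lets them flow back through a rotary motor that makes ATP. Most subunits are encoded in the nucleus, made in the cytosol and imported, and a small set is encoded by mitochondrial DNA; only the nuclear genes are described here.

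Of the 92 members, 5 rose, 2 fell and 85 did not pass an adjusted p of 0.05, which is 7.61% changed against a background of 12.5% over all genes. By direction the backgrounds were 4.62% raised and 7.93% lowered. The genes that rose were NDUFS3 and NDUFAF3 of complex I, UQCRQ and UQCR10 of complex III and CYCS. Both that fell, ATP5B and ATP5E, encode subunits of F1, the part of ATP synthase made of the catalytic head and central stalk. No gene of complex II or complex IV passed the threshold; among these 20 genes 1, COX7C, had an unadjusted p under 0.05, against 11 of all 92 members. Values are the authors' own log2 fold changes, knockdown over control, each drawn towards 0 by the authors' fit, with the SE of that fit. Values of single libraries are not analysed here, so the spread within each group is seen only through the SE, and p-values cover the spread between these libraries, which the labels do not tie to separate cultures.

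The stretches below show the 3' untranslated region (3' UTR) sequence of the members that moved most, since 2 words of 7 bases stand in them, GATTGAA in the lowered ATP5B and ATP5E and CTTATCT in the raised NDUFS3 and NDUFAF3. The words came from an earlier scan of all 3' UTRs against these same fold changes, members included, so the match is a description and no independent support. Each line gives 23 bases of GENCODE 29 transcript, 5' to 3' on the gene's strand (GRCh38), with the word in capitals.
ATP5B, minus strand, chr12:56638224-56638246: agagccttGATTGAAgatatatt
ATP5E, minus strand, chr20:59028763-59028785: ttatggcaGATTGAAaaggatct
NDUFA4, minus strand, chr7:10933079-10933101: ggtcctagGATTGAAgttgaaat
NDUFS3, plus strand, chr11:47581505-47581527: aagctgtcCTTATCTtatagaat
NDUFAF3, plus strand, chr3:49023221-49023243: ctttcactCTTATCTaccctttg
NDUFAF3, plus strand, chr3:49023239-49023261: ctttggcaCTTATCTtgcttatc

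NDUFA4 is shown as a member that holds GATTGAA and did not pass the threshold. In ATP5B the word begins at base 85 of a 3' UTR of 144 bases. In ATP5E it begins at base 68 of the longest annotated 3' UTR, and 2 of the 3 coding transcripts hold it. NDUFAF3 holds CTTATCT at bases 57 and 75, in all 4 of its coding transcripts, and NDUFS3 at base 511, in 2 of 5.

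GATTGAA stood in the longest annotated 3' UTR of 6 of the 92 members: ATP5B and ATP5E, both lowered, and NDUFA4, NDUFA6, NDUFB6 and SDHC, which did not pass. None of the 86 members without it fell. CTTATCT also stood in 6 members, NDUFS3 and NDUFAF3, both raised, and NDUFAF5, NDUFA5, NDUFS1 and SDHC, which did not pass. SDHC, a membrane anchor of complex II, is the member that holds both words; its log2 fold change in the authors' deposited table was -0.12 (SE 0.10, adjusted p = 0.377). Of the 81 members with neither word, 3 rose (UQCRQ, CYCS and UQCR10) and none fell. Among the 9367 genes with a 3' UTR that averaged at least 100 normalized counts, 1054 (11.3%) hold GATTGAA, of which 324 fell and 55 rose, beside 858 that fell and 620 that rose of the 8313 without it. In the same set 1159 (12.4%) hold CTTATCT, of which 168 rose and 141 fell, beside 507 that rose and 1041 that fell of the 8208 without it. Over all genes with a 3' UTR, 1801 hold CTTATCT, of which 184 rose and 178 fell. Of the 14771 without it, 658 rose and 1334 fell. The words were picked by a scan of these same 3' UTRs and fold changes. The counts over all genes are therefore a description and no independent support for the pattern in the members. The part of either word in these changes was not tested.

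**Figure D1:**
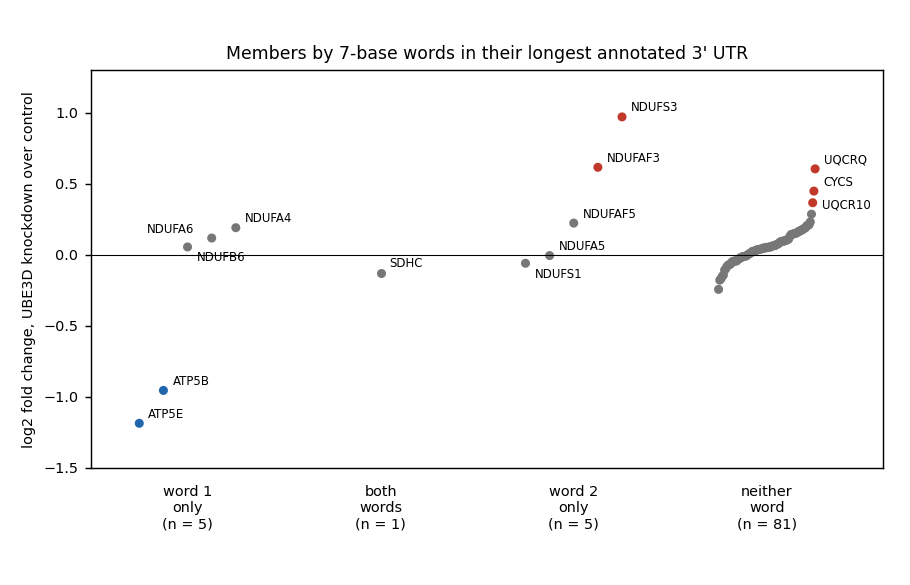
Log2 fold change of each member (vertical axis, UBE3D knockdown over control), in columns by which of the 2 words its longest 3' UTR holds (word 1, GATTGAA; word 2, CTTATCT). Red points rose, blue points fell and grey points did not pass an adjusted p of 0.05; ATP5B and ATP5E stand alone below the other 3 members that hold only word 1, and the 81 members with neither word hold 3 red and no blue points.

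Complex I takes electrons from NADH and is the largest of the complexes. It gave 44 members, of which 2 rose, none fell and 42 did not pass. That is 4.55% changed, against 12.5% of all genes and 19.8% of those averaging at least 100 normalized counts. NDUFS3, a core subunit of the arm that hands electrons to ubiquinone, had the largest rise of any member, 0.97 log2 units (SE 0.19, adjusted p = 2.14e-07) with 388 normalized counts on average in the authors' deposited table. That is 1.96-fold higher in knockdown cells, and it ranks 119 of 20115 genes by log2 fold change. NDUFAF3, an assembly factor that joins early subunits of the same arm and is not part of the finished enzyme, rose by 0.62 (SE 0.18, adjusted p = 3.63e-04, mean 185) in the authors' deposited table. NDUFS3 was the only one of 8 NDUFS genes to pass, and NDUFAF3 the only one of 7 NDUFAF genes.

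The other complex I genes stayed close together. None of the 13 NDUFA, 11 NDUFB, 2 NDUFC or 3 NDUFV genes passed. NDUFAF2, another assembly factor, had the highest value among those that did not pass, 0.29 (SE 0.22, adjusted p = 0.152), and NDUFAF1, which helps to build the membrane arm, the lowest of complex I, -0.17 (SE 0.15, adjusted p = 0.322), in the authors' deposited table. NDUFS5, an accessory subunit with the highest mean of the complex, 1116 normalized counts, had -0.02 (SE 0.16) in the authors' deposited table. NDUFS7 and NDUFS8, iron-sulfur subunits of the same arm as NDUFS3, did not pass the threshold: the authors' deposited table gave NDUFS7 0.14 (SE 0.14) and NDUFS8 0.08 (SE 0.10). NDUFAF4, the partner of NDUFAF3 in assembly, had 0.04 (SE 0.16) in the authors' deposited table. The median over complex I was 0.05, against -0.03 over all genes and 0.00 over the 9743 genes averaging at least 100 normalized counts.

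The annotated spans of NDUFS3 (chr11:47565336-47584562, plus strand) and NDUFAF3 (chr3:49020459-49023495, plus strand) overlap other genes in GENCODE 29. The span of NDUFS3 starts well before its RefSeq promoter window, chr11:47578824-47579123. Which of the bases shared by NDUFS3 lie before that window was not examined. NDUFS3 shares 8032 bases with PTPMT1 on the same strand, and PTPMT1 had 0.08 (SE 0.15, adjusted p = 0.679) in the authors' deposited table. KBTBD4, on the opposite strand, shares 6819 bases with NDUFS3 and had -0.04 (SE 0.14, adjusted p = 0.848) in the authors' deposited table. CELF1, an RNA-binding protein gene also on the opposite strand, shares 234 bases with NDUFS3 and fell by 0.58 (SE 0.14, adjusted p = 5.31e-05) in the authors' deposited table. NDUFAF3 shares 1835 bases with DALRD3 on the opposite strand, which had -0.09 (SE 0.14, adjusted p = 0.606) in the authors' deposited table. The sources used here do not give how reads in shared bases were counted or with which strand setting, and the values of NDUFS3 and NDUFAF3 are uncertain to that extent.

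**Figure D2:**
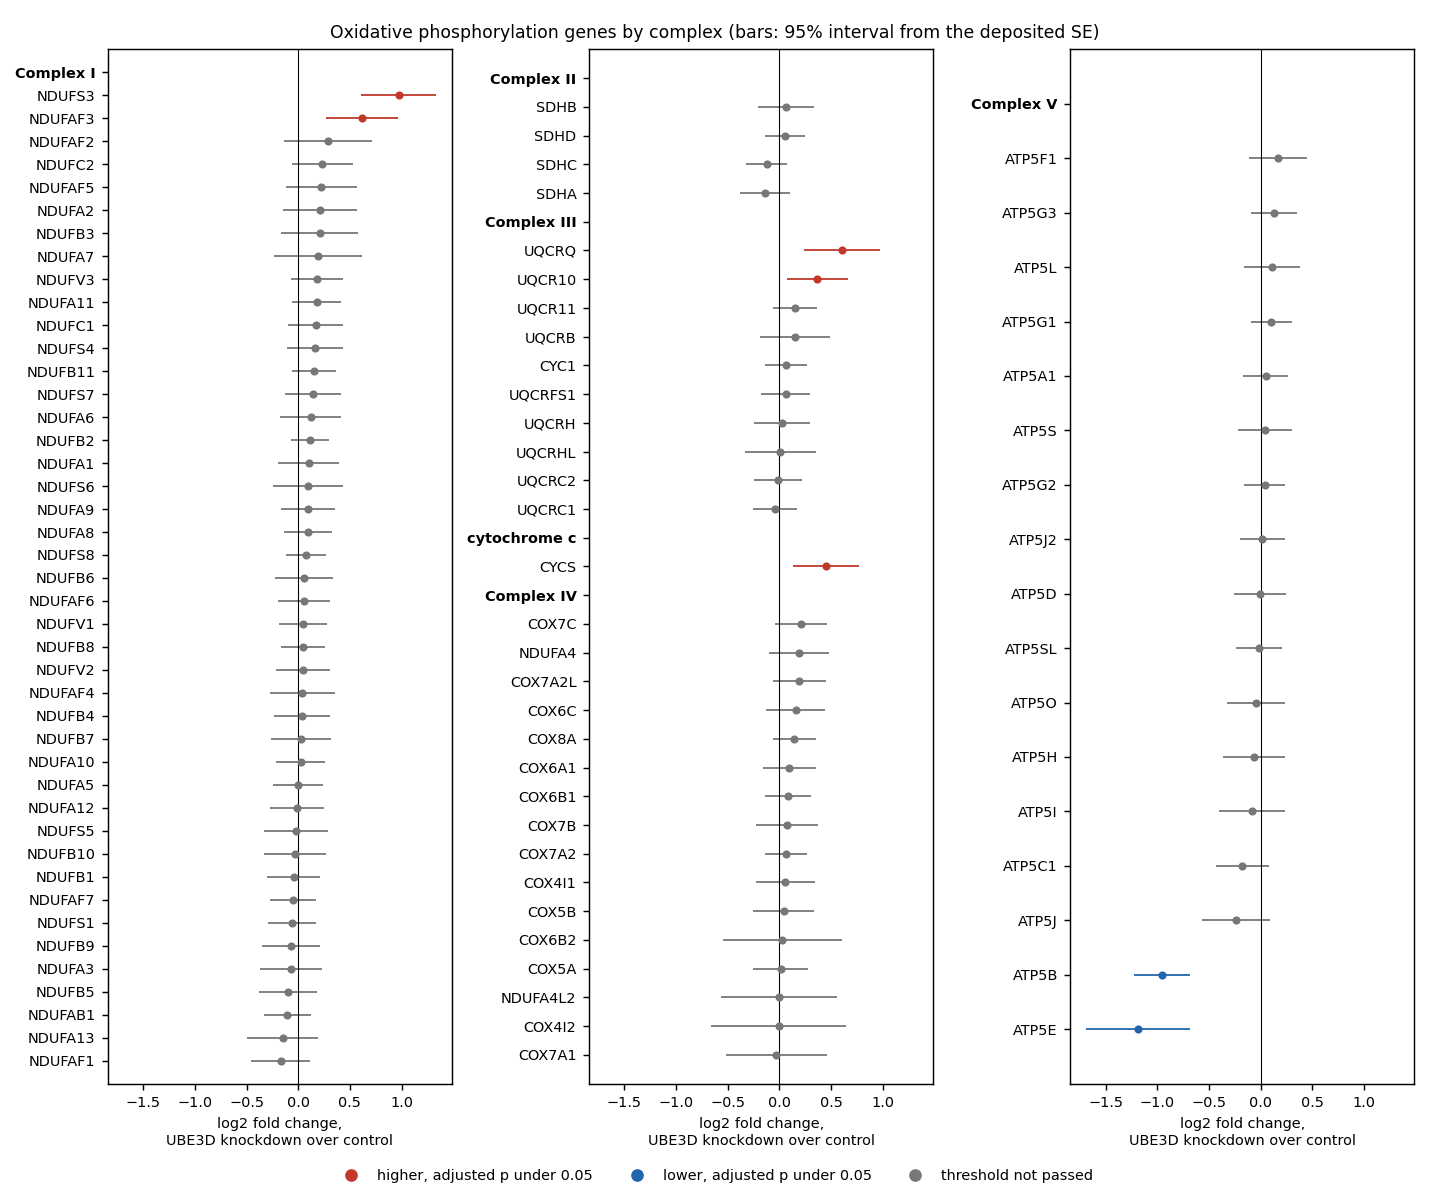
Log2 fold change of the members by name, 1 left out, with its 95% interval from the deposited SE, not adjusted for the number of genes, 1 row a gene, sorted within each complex. Red rows rose, blue rows fell and grey rows did not pass an adjusted p of 0.05; the grey values lie between -0.24 and 0.29, while NDUFS3 reaches 0.97 and ATP5E -1.19.

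Complex II, succinate dehydrogenase, is shared with the tricarboxylic acid cycle and is encoded wholly in the nucleus. None of its 4 genes passed the threshold, and none had an unadjusted p under 0.05. SDHA, the flavoprotein that oxidises succinate, had the highest mean of the complex, 1931 normalized counts, and the lowest value, -0.14 (SE 0.12, adjusted p = 0.366), in the authors' deposited table. SDHB, the iron-sulfur subunit, had the highest, 0.06 (SE 0.14, adjusted p = 0.748), in the authors' deposited table. The membrane anchor genes SDHC and SDHD lay between them.

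Complex III passes electrons from ubiquinol to cytochrome c. Of its 10 genes 2 rose (20%), none fell and 8 did not pass. Of all genes 12.5% changed, and of those averaging at least 100 normalized counts 19.8%. UQCRQ, a small accessory subunit (chr5:132866560-132868031, plus strand), rose by 0.61 (SE 0.19, adjusted p = 7.04e-04) with 729 normalized counts on average in the authors' deposited table. UQCRQ shares 325 bases with GDF9 on the opposite strand, which had 0.10 (SE 0.29, adjusted p = 0.623, mean 29.3) in the authors' deposited table. How reads in these shared bases were counted is not given, as for NDUFS3. UQCR10, another small accessory subunit (chr22:29767369-29770413, plus strand), rose by 0.37 (SE 0.15, adjusted p = 0.0137, mean 268) in the authors' deposited table. This call is lost in a Wald test on the deposited change and SE (adjusted p = 0.180). That test uses shrunken changes and is stricter by construction: over all genes it called 1216, against 2524 by the deposited adjusted p. The subunits that carry electrons did not pass: in the authors' deposited table the Rieske protein gene UQCRFS1 had 0.06 (SE 0.12) and CYC1, cytochrome c1, 0.06 (SE 0.11). The core protein gene UQCRC1 had the lowest value of the complex, -0.04 (SE 0.11), and UQCRH, the hinge protein with the highest mean, 1033 normalized counts, had 0.03 (SE 0.14), in the authors' deposited table. The 8 genes that did not pass had values from -0.04 to 0.15, and whether UQCRQ and UQCR10 differ from them was not tested.

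CYCS, cytochrome c itself, carries electrons from complex III to complex IV and also sets off caspase activation when it leaves mitochondria. It rose by 0.45 (SE 0.16, adjusted p = 0.00397) with 1019 normalized counts on average in the authors' deposited table (chr7:25120091-25125361, minus strand). The call is lost in the Wald test on the deposited change and SE, with an adjusted p of 0.0805.

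UQCRQ and UQCR10 belong to 1 complex and moved the same way, so their promoter windows are shown (250 bases before to 50 after the RefSeq start, GRCh38.p14, 5' to 3' on the gene's strand). Capitals mark a match to the ETS motif CCGGAAG in UQCRQ and to the NRF1 motif GCGCANGCG in UQCR10.
UQCRQ, plus strand, chr5:132866392-132866691: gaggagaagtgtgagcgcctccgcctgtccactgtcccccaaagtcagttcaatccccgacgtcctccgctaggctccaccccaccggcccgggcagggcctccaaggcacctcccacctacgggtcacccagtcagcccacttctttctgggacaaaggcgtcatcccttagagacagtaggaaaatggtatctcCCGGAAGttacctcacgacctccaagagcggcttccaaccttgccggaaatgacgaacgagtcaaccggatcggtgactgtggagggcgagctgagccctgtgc
UQCR10, plus strand, chr22:29767119-29767418: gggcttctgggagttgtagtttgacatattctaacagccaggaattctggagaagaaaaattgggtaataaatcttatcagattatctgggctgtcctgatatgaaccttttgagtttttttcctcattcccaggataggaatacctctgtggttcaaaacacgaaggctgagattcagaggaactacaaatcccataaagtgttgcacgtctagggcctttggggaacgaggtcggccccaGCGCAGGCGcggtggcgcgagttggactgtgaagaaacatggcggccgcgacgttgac

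Searched on both strands, GCGCANGCG stood in 23 of 91 member windows (25.3%), against 7.52% of all 35116 windows. CCGGAAG stood in 22 (24.2%), against 10.3%, and the YY1 motif AAGATGGCG in 10 (10.99%), against 1.75%; an ETS and a YY1 match can share the letters AAG. RefSeq windows were matched for 74 members. Of the 7 changed members, 6 had a window: UQCR10 held the NRF1 motif, UQCRQ and NDUFS3 the ETS motif, and CYCS, NDUFAF3 and ATP5E none of the 3. A match is a run of letters and not evidence of binding.

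Complex IV, cytochrome c oxidase, gave 16 members, with NDUFA4 and NDUFA4L2 placed here because NDUFA4 is known as a subunit of this complex. None passed the threshold, and the values lay closer together than in any other complex with more than 4 members, between -0.03 and 0.21. Of the 16, 13 were above 0, and the median was 0.07. COX7C, a small subunit, had both the highest mean, 1156 normalized counts, and the highest value, 0.21 (SE 0.13, adjusted p = 0.168), in the authors' deposited table. COX7A2L, which links complexes III and IV into supercomplexes, had 0.19 (SE 0.13, adjusted p = 0.216) in the authors' deposited table.

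Some subunits of complex IV come in isoforms known from other tissues or from low oxygen. Per kilobase of coding sequence the mean level of COX4I1 was 112 times that of COX4I2, which is known from lung, and that of COX7A2 was 38.5 times that of the muscle form COX7A1. The level of COX6B1 per kilobase was 36.6 times that of the testis form COX6B2, and that of NDUFA4 was 41.1 times that of NDUFA4L2, a gene known to be induced by hypoxia. These 4 minor isoforms had means of 9.59 to 20.3 normalized counts and log2 fold changes of -0.03 to 0.03 in the authors' deposited table, with SEs of 0.25 to 0.33, so only large changes could have been seen. The size of these ratios depends on the length used: over coding plus longest 3' UTR bases, an alternative added after seeing the data, they were 42.5 for COX4I1, 27.8 for COX7A2, 151 for COX6B1 and 18.3 for NDUFA4. COX6A2, COX7B2 and COX8C are not analysed here. Muscle markers were also low: CKM, ACTC1, TNNT2 and MYH7 had means of 13.96 to 45.9 normalized counts.

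Complex V, the ATP synthase, gave 17 members, of which 2 fell, none rose and 15 did not pass (11.8% changed, against 12.5% of all genes). ATP5B (now ATP5F1B), the beta subunit that holds the catalytic sites, fell by 0.95 log2 units (SE 0.14, adjusted p = 1.21e-11) with 3795 normalized counts on average in the authors' deposited table. This is 1.94-fold lower in knockdown cells, from the second most abundant row of any member. ATP5E (now ATP5F1E), the epsilon subunit of the central stalk, fell by 1.19 (SE 0.26, adjusted p = 2.56e-06) with 308 on average in the authors' deposited table, which is 2.27-fold lower. Counted from the lowest log2 fold change of all 20115 genes, ATP5E ranks 192 and ATP5B 310.

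F1, the head of the enzyme with its central stalk, is built from 5 kinds of subunit, and the other 3 did not pass the threshold. ATP5A1, the alpha subunit that alternates with beta around the head, had the highest mean of all members, 5112 normalized counts, and a value of 0.05 (SE 0.11, adjusted p = 0.787) in the authors' deposited table. ATP5C1, the gamma subunit of the rotating shaft, had -0.18 (SE 0.13, adjusted p = 0.259), and ATP5D, the delta subunit beside epsilon, -0.01 (SE 0.13), in the authors' deposited table. Alpha and beta are present in equal number in the enzyme; the beta gene fell and the alpha gene did not pass, and the difference between their changes was not tested. None of the 10 other subunit genes passed. They ran from ATP5J, coupling factor 6 of the peripheral stalk, with -0.24 (SE 0.17, adjusted p = 0.166), to ATP5F1, the b subunit of that stalk, with 0.17 (SE 0.14, adjusted p = 0.313), in the authors' deposited table. The c-ring genes ATP5G1, ATP5G2 and ATP5G3 encode the same mature protein, and their order of level could not be fixed. Per kilobase of coding sequence ATP5G3 had 5.12 and 4.22 times the level of ATP5G1 and ATP5G2, but its 3' UTR is far longer (2030 bases, against 102 and 148), and over coding plus 3' UTR bases the ratios were 1.11 and 0.988. The changes of ATP5G1, ATP5G2 and ATP5G3 were 0.10, 0.04 and 0.13 in the authors' deposited table, none past the threshold. ATP5S and ATP5SL, whose symbols fall under the rule but which are not subunits, had 0.04 and -0.02 in the authors' deposited table.

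ATP synthase genes whose older symbols fall outside the rule did not pass either. The authors' deposited table gave USMG5, a small membrane subunit, -0.23 (SE 0.16, adjusted p = 0.174), C14orf2, another, 0.11 (SE 0.14, adjusted p = 0.543), and ATPIF1, the inhibitor of the enzyme, 0.00 (SE 0.13, adjusted p = 0.998). ATP5E (chr20:59025467-59032382, minus strand) shares 1188 bases with TUBB1 on the opposite strand, which had 0.17 (SE 0.25, adjusted p = 0.422) in the authors' deposited table. ATP5B (chr12:56638175-56646068, minus strand) holds the small nucleolar RNA gene SNORD59A within its span and overlaps no other protein-coding gene.

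**Figure D3:**
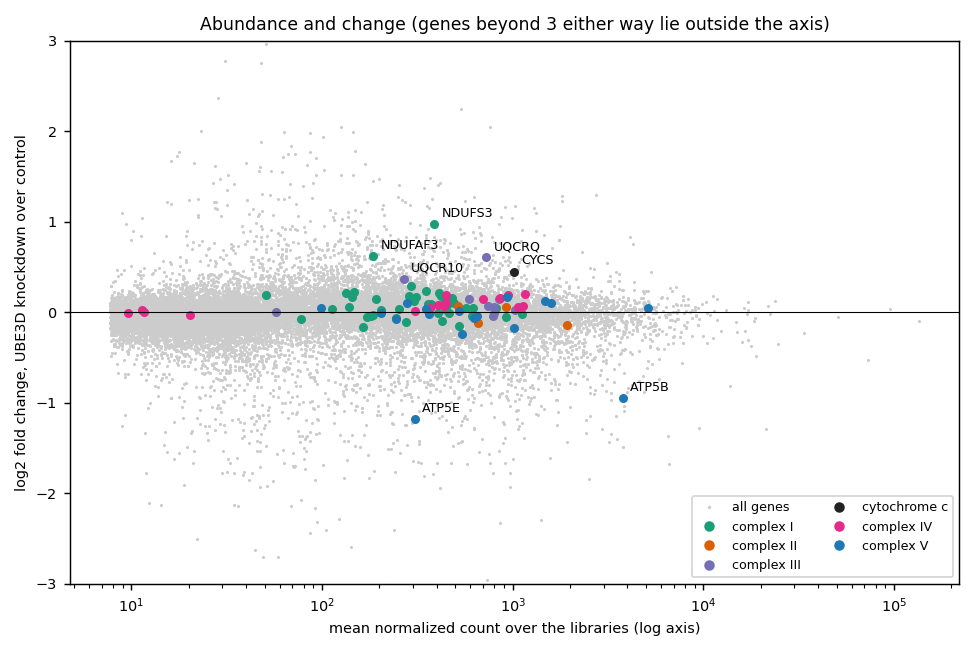
Mean normalized count over all libraries (horizontal log axis) against log2 fold change (vertical axis, UBE3D knockdown over control), with members coloured by complex over all genes in grey. ATP5B, at 3795, lies 0.95 below 0 among abundant genes, while ATP5A1, at 5112, lies at 0.05; the 4 minor isoforms of complex IV form the left edge.

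The members that did not pass had a median SE of 0.135, against 0.126 for all genes averaging at least 100 normalized counts. Their values ran from -0.24 to 0.29, the 95% interval of 74 of these 85 lay within 0.5 of 0 on the log2 scale, and that of all 85 within 1. Small changes within those bounds could not be seen, and shrinkage of the fold changes narrows the intervals. Of all 92 members 62 (67.4%) were above 0, against 43.2% of all genes and 50.2% of genes averaging at least 100 normalized counts. Among genes at that level 19.8% changed, against 8.33% of the 84 such members.

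Readthrough RNA was measured in a second table of 2014 downstream-of-gene (DoG) regions, in which transcription runs on past the end of a gene. Of the members 14 had a region, 13 under their own name and ATP5E in a region merged with its neighbour SLMO2; the other 78 had none in the table. Of the 14 regions 1 rose, 1 fell and 12 did not pass, 14.3% changed against a background of 28.8%. The median was 0.03, against -0.01 over all regions. The DoG of NDUFV3, an accessory subunit of the NADH-oxidising tip of complex I, rose by 0.53 (SE 0.16, adjusted p = 8.09e-04, mean 320) in the authors' deposited table, while NDUFV3 itself had 0.18 (SE 0.13, adjusted p = 0.248). The DoG of NDUFAF7, a methyltransferase that acts in complex I assembly, fell by 0.57 (SE 0.15, adjusted p = 1.78e-04, mean 496) in the authors' deposited table, while NDUFAF7 itself had -0.05 (SE 0.11, adjusted p = 0.779).

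Other genes lie close to many of these regions. Of the 14, 8 had a gene on the opposite strand with a mean of at least 50 within 10 kb past the end of the host. No such search was made for genes on the same strand. PRKD3 lies opposite NDUFAF7 and fell by 0.43 (SE 0.15, adjusted p = 0.00414) in the authors' deposited table; its part in the lower NDUFAF7 region was not tested. The NDUFB10 region had the highest mean, 6253 normalized counts, and the ribosomal protein gene RPS2 opposite it had 5995, in the authors' deposited tables. The NDUFB10 region had a log2 fold change of 0.07 (SE 0.15) and RPS2 0.16 (SE 0.13) in the authors' deposited tables.

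A test of the DoG change against that of the gene matched to it by name, over the 1921 regions with a match, called 8.43% of them and 2 of the 14. The merged region of ATP5E and SLMO2 was set against ATP5E only. The ATP5E region had 0.13 (SE 0.19, adjusted p = 0.525) in the authors' deposited table although ATP5E had fallen, so the difference, DoG minus gene, was 1.32 (SE 0.32, adjusted p = 0.00177). The NDUFAF3 region had -0.13 (SE 0.13, adjusted p = 0.410, mean 2086) in the authors' deposited table although NDUFAF3 had risen, a difference of -0.75 (SE 0.22, adjusted p = 0.0129). In both cases the matched gene had moved and the region had not passed the threshold. On the strand opposite the NDUFAF3 region, IMPDH2 had a mean of 1516 and a log2 fold change of 0.00 (SE 0.12). QRICH1, also on that strand, had a mean of 853 and -0.08 (SE 0.10), while NDUFAF3 had a mean of 185. SLMO2, whose name the ATP5E region also carries, had a mean of 1071 and -0.13 (SE 0.13), and ATP5E a mean of 308. All these values are from the authors' deposited table. Which gene the RNA of either region came from was not tested. The differences for NDUFAF7 (-0.52, SE 0.19, adjusted p = 0.0718) and NDUFV3 (0.35, SE 0.21, adjusted p = 0.382) did not pass. NDUFS3, UQCRQ, CYCS, UQCR10 and ATP5B, the other changed genes, had no region in the table.

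**Figure D4:**
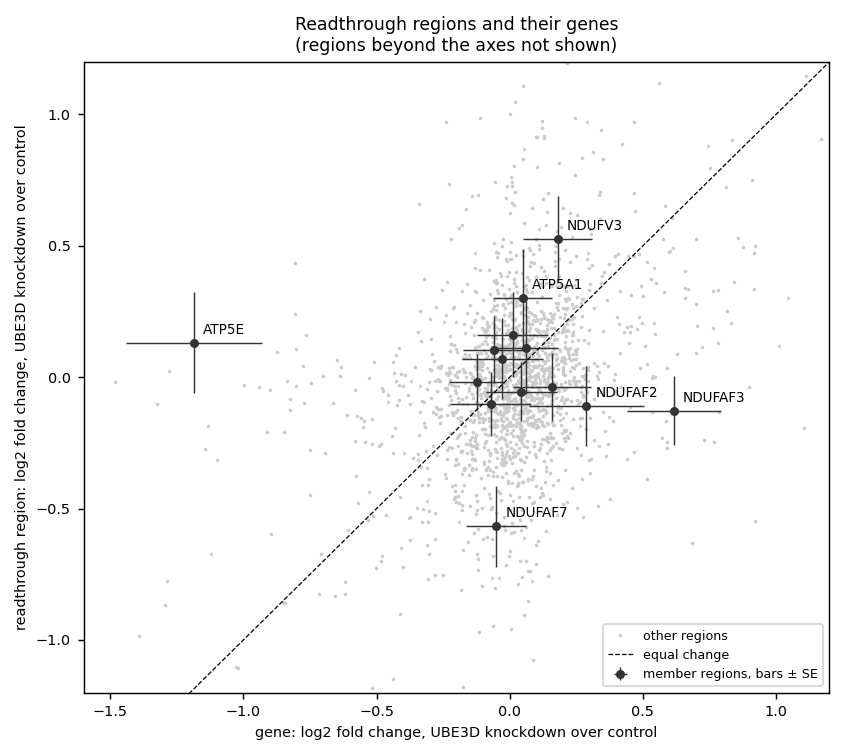
Log2 fold change of a gene (horizontal axis) against that of its readthrough region (vertical axis), both UBE3D knockdown over control, with SE bars for the 14 member regions over all other matched regions in grey; the dashed line marks equal change. ATP5E, whose region is merged with SLMO2, lies far to the left (gene -1.19, region 0.13), NDUFAF3 to the right (0.62 and -0.13), NDUFV3 high and NDUFAF7 low.

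Genes that work beside the complexes were counted in 5 further lists. The shares changed stand beside 12.5% of all genes and 19.8% of genes averaging at least 100 normalized counts. Of 43 other assembly factors 2 rose and 1 fell (6.98%, median 0.04). ATPAF1, the chaperone that binds the beta subunit ATP5B before it enters F1, rose by 0.42 (SE 0.19, adjusted p = 0.0183), and SDHAF4, a complex II factor, by 0.44 (SE 0.24, adjusted p = 0.0367), in the authors' deposited table. COX11, a copper carrier for complex IV, fell by 0.36 (SE 0.17, adjusted p = 0.0288) in the authors' deposited table. All 3 calls are lost in the Wald test on the deposited change and SE, with adjusted p-values of 0.283, 0.535 and 0.315.

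Of 17 regulators of mitochondrial biogenesis and mitochondrial gene expression 1 fell and none rose (5.88%, median -0.06). TFB2M, a factor that starts transcription of mitochondrial DNA, fell by 0.97 (SE 0.19, adjusted p = 3.23e-07) in the authors' deposited table, and its 3' UTR holds GATTGAA. Of 21 genes of pyruvate dehydrogenase and the tricarboxylic acid cycle 4 fell and none rose (19.0%), although the list's median was 0.07. That share is near the 19.8% of genes averaging at least 100 normalized counts. The kinase genes PDK1 and PDK3, which switch pyruvate dehydrogenase off, fell by 0.50 (SE 0.13, adjusted p = 1.28e-04) and 0.26 (SE 0.11, adjusted p = 0.0408), and the cycle enzyme genes DLST and SUCLG2 by 0.48 (SE 0.14, adjusted p = 4.83e-04) and 0.33 (SE 0.14, adjusted p = 0.0230), in the authors' deposited table. The calls of SUCLG2 and PDK3 are lost in the Wald test (adjusted p = 0.230 and 0.249).

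Of 7 carrier and channel genes 1 rose: SLC25A4, an ADP/ATP carrier known from heart and muscle, by 0.38 (SE 0.12, adjusted p = 0.00124) in the authors' deposited table (14.3%, list median 0.08). Of 77 mitochondrial ribosomal protein genes 2 rose and 3 fell (6.49%, median 0.02). MRPL13 fell by 0.69 (SE 0.20, adjusted p = 2.68e-04), MRPS16 by 0.42 (SE 0.14, adjusted p = 0.00212) and MRPS30 by 0.32 (SE 0.15, adjusted p = 0.0304), in the authors' deposited table. In the Wald test MRPS30 is lost (adjusted p = 0.280), and MRPS16 passes (0.0413) but is lost when the median is shifted to 0 (0.0687). MRPS14 rose by 0.33 (SE 0.14, adjusted p = 0.0206) and MRPL34 by 0.40 (SE 0.19, adjusted p = 0.0214) in the authors' deposited table, calls that are lost in the Wald test (adjusted p = 0.206 and 0.303). Of the 9 lowered genes in the lists 4 hold GATTGAA (TFB2M, DLST, MRPL13 and MRPS16), and of the 5 raised genes 2 hold CTTATCT (ATPAF1 and SLC25A4), beside 13 and 11 of the 164 listed genes with a 3' UTR. PDK1, which fell, also holds CTTATCT, in 4 copies. The scan that gave the words covered all 3' UTRs, those of the listed genes included, so these counts are a description and no independent support.

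**Figure D5:**
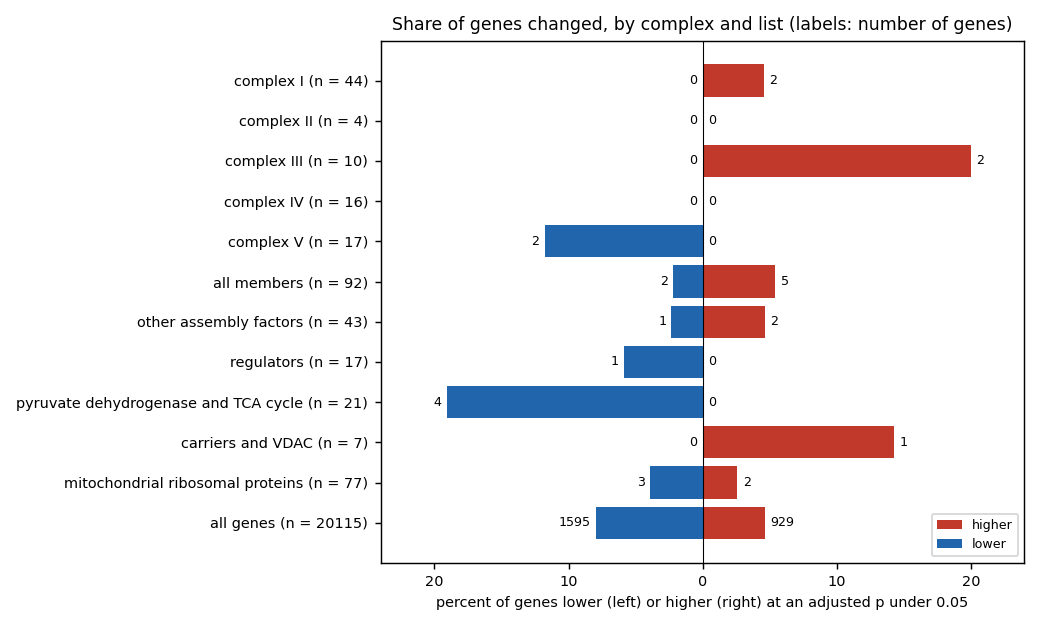
Percent of genes lower (left, blue) and higher (right, red) in UBE3D knockdown cells at an adjusted p under 0.05, by complex and by further list, with the number of genes beside each bar and all genes in the last row. Complexes II and IV have no bar, complex III has 2 of 10 genes higher, and complex V has 2 of 17 lower.

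UBE3D itself fell by 0.80 (SE 0.37, adjusted p = 0.00632) with 36.7 normalized counts on average in the authors' deposited table. The call is lost in the Wald test on the deposited change and SE (adjusted p = 0.295), which is stricter because those changes are shrunken. CPSF3, the gene of CPSF73, had -0.12 (SE 0.13, adjusted p = 0.464) in the authors' deposited table. The line's markers were abundant, with means from 2754 (EGFR) to 11376 (AXL) for 6 genes, and ESR1, PGR, GATA3 and CDH1 were at 22.2 to 80.0. Fibroblast markers had means of 14.2 to 168 and the blood and endothelial markers PTPRC, PECAM1, VWF and CD68 43.7 to 271 normalized counts. Several of these markers moved between the groups in the authors' deposited table: CAV1 fell by 1.68 (adjusted p = 2.39e-27), VIM by 0.34 (0.0349), CD44 by 0.26 (0.0427) and CD68 by 1.25 (1.35e-15), while CDH1 rose by 1.06 (0.00125) and LUM by 1.42 (2.74e-06). Their part in the changes of the oxidative phosphorylation genes was not tested. Fewer cells of a kind and less RNA per cell cannot be told apart in such samples.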

How the data were processed

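RNA of 3 UBE3D knockdown and 3 control libraries was depleted of ribosomal RNA, primed at random and sequenced as stranded read pairs, per the labels' protocols. Per the submitters' processing notes, DESeq2, STAR 2.5.2b and cutadapt 1.8.1 were used with the build hg38; of the counting tool, its strand setting, the annotation and the DoG caller, each is not given in the sources used here. Per the file headers, the deposited tables give per row a mean normalized count (a signal), a p-value with its adjusted form, and a log2 fold change with its SE, for 1 comparison. The deposited log2 fold changes are shrunken: over their SE they are smaller than the p-value's normal quantile in 20112 of 20112 rows (median ratio 0.64). A Wald test on them is therefore stricter than the deposited test, and over all genes it called 1216 in place of 2524. The lowest mean is 7.74. Depth per library is unknown.

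A gene was called changed where the deposited adjusted p was under 0.05, over all rows. Intervals are 95% from the deposited SE. DoG minus gene differences were set over the combined SE (square root of the sum of squares), with a two-sided normal p and Benjamini-Hochberg adjustment over 1921 regions. Both tables may have been scaled separately, and their libraries are shared, so the SE is approximate. Shrinkage that differs between a region and its gene would also enter the difference itself. Genes were placed on GENCODE 29 by symbol or RefSeq synonym (18854 of 20115, all 92 members), and a 3' UTR was the longest among basic coding transcripts of at least 50 bases; the authors' annotation may differ. The tests were run on simulated data with unshrunken changes and independent errors, so that check does not cover shrinkage or shared libraries. Members and lists were chosen with earlier results of these data known. The text names every changed member, the highest, lowest and most abundant member of each complex, the minor isoforms, the changed DoG regions and up to 4 changed genes per list (35 genes); other genes were named for their role or position after values were seen. The value of 1 member enters the counts and medians but is not reported here. The alternatives were other thresholds, a minimum mean, a Wald test on the deposited change and SE, a shift of the median to 0, and subsets of members and regions. Scripts ran on Python 3.11.15 with scipy 1.17.1, pandas 2.3.3 and numpy 2.4.6.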

Additional observations from a re-analysis of the deposited data

How the results depend on the processing

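No paired analysis was possible because the deposited tables give 1 comparison with no column for a single library, so replicates could not be left out either. The number of raised members was 3 in place of 5 in a Wald test on the deposited change and SE, also when shifted to a median of 0, where CYCS (adjusted p = 0.0805, and 0.0544 when shifted) and UQCR10 (0.180 and 0.123) no longer passed. It was also 3 without the members that hold CTTATCT or either word, and the number of lowered members was 0 without those that hold GATTGAA or either word, since these subsets leave out NDUFS3 and NDUFAF3, or ATP5B and ATP5E. The subsets without CTTATCT or either word were chosen after seeing the data, as was adding USMG5, C14orf2 and ATPIF1, which left both counts as they were. With an adjusted p under 0.1, 2 member DoG regions rose, ATP5A1 being added; with regions opposite a gene left out, 0 fell. With the host SE left out, 3 differences were lower, NDUFAF2 and NDUFAF7 being added to NDUFAF3.

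In the lists, an adjusted p under 0.01 and the shifted Wald test each left 0 raised and 0 lowered assembly factors, 2 lowered pyruvate dehydrogenase and cycle genes and 0 raised ribosomal protein genes, and the shifted Wald test left 1 lowered ribosomal protein gene. Under 0.1, 2 assembly factors and 1 carrier gene were lowered. A shift of the median to 0 turned the sign of 8 members with values near 0: COX4I2 (0.0170), NDUFA4L2 (0.0245), NDUFS5 (0.00597), ATP5D (0.0191), ATP5SL (0.00757), UQCRC2 (0.0143), NDUFA12 (0.0143) and NDUFA5 (0.0212). The complex V median is the value of ATP5D and turned with it. Of the alternative values for counts and medians 78 stayed within 1.5 times (counts) or moved by less than the members' median SE (medians), and 20 moved. Low means limit UBE3D and the minor isoforms most.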

Other observations

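Of 37 readthrough regions of the genes in the further mitochondrial lists 9 rose and 4 fell, 35.1% against 28.8% of all regions; the shares were not tested against each other. The region behind ATPAF1, the assembly chaperone of the beta subunit, rose by 1.98 log2 units (SE 0.18, adjusted p = 8.63e-29) in the authors' deposited table, the second highest of 2014 regions, at a mean of 161. ATPAF1 itself rose by 0.42, and the difference, region minus gene, was 1.56 (SE 0.26, adjusted p = 3.76e-07). The region behind COX15, a heme A synthesis gene, rose by 0.53 (SE 0.10, adjusted p = 7.92e-07) in the authors' deposited table, while COX15 had -0.22 (SE 0.11, adjusted p = 0.0798). The regions of PDHA1, a subunit of pyruvate dehydrogenase, and SLC25A6, an ADP/ATP carrier, rose by 0.92 (SE 0.21) and 1.11 (SE 0.28) in the authors' deposited table, where neither gene passed the threshold. The region behind DLD, the shared dehydrogenase subunit of pyruvate dehydrogenase and the cycle, fell by 0.64 (SE 0.16, adjusted p = 4.83e-05) in the authors' deposited table, and DLD had 0.10 (SE 0.12). These regions were chosen after their values were seen.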
